A study of Mus musculus with 7 samples.

Results

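Histone-modifying enzymes and transcriptional coregulators were compared between mouse hearts with a cardiomyocyte transgene of full-length mouse Nrf2 (mNrf2-TG) and non-transgenic hearts (NTG). Members were all genes of the deposited table whose symbol belongs to the Hdac, Sirt, Kat, Kdm, Kmt, Setd, Ezh, Ncoa, Ncor or Prmt families, with Ep300 and Crebbp. This gave 81 of the 14641 genes, and all 81 passed the filter on low counts. By family, 37 were classed as writers, 35 as erasers and 9 as coregulators. The classes follow the gene families and not proven activity on histones, since Setd3, for example, is known to methylate a histidine of actin. RNA was sequenced from whole heart lysates of male mice on the C57BL/6J background, with 4 NTG libraries (numbered 1 to 4) and 3 mNrf2-TG libraries (numbered 17 to 19). The transgene is driven by the αMHC promoter, so it acts in cardiomyocytes, while every cell type of the heart contributes RNA. No treatment is named for either group. The labels give an age of 6 months for the mNrf2-TG mice, while the methods state 6–7 months and the series description 7–8 months for the cohort.

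Writers add acetyl or methyl groups to histone tails and erasers take them off. Acetylation by the Kat enzymes, Ep300 and Crebbp is a mark of active promoters and enhancers, and the Hdac and Sirt deacetylases remove it. Methylation by the Kmt, Setd, Ezh and Prmt enzymes can mark active or silent chromatin, depending on the residue, and the Kdm enzymes reverse the lysine marks. Ncoa proteins bridge nuclear receptors to acetyltransferases, and Ncor1 bridges unliganded receptors to Hdac3. In the heart, class IIa deacetylases are known as brakes on MEF2-driven growth genes, and Ep300 as an acetyltransferase of GATA4. Nrf2 itself binds Crebbp and Ep300. Many of these enzymes also modify proteins other than histones.

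Nrf2 binds antioxidant response elements, whose core was searched here as TGACNNNGC on both strands, from 250 bases before to 50 bases after each gene start in RefSeq promoters (GRCm38.p6). Promoters were matched for 66 of the 81 members, and 13 of these (19.7%) held the letters. The share was 16.7% among tested genes with a promoter and 12.4% among all 32851 promoters counted singly. A gene counts here if any of its promoters holds the letters. Of the 10 members with a promoter and an adjusted p under 0.05, 1 held them, Kdm4a. The sequences below are the stretch around the letters, in capitals, in Kdm4a and in the deacetylase genes Hdac8, Hdac11, Sirt1 and Sirt3, because the Hdac and Sirt families are described gene by gene below. Of the 6 Hdac and Sirt promoters with the letters, these 4 hold them before the start, and those of Hdac7 and Sirt7, which hold them after it, are not shown.
Hdac11, chr6:91156619-91156734, plus strand: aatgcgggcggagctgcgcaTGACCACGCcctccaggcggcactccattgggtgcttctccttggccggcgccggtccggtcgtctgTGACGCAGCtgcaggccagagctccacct
Hdac8, chrX:102505336-102505384, minus strand: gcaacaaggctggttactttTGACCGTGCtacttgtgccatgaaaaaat
Sirt1, chr10:63339118-63339166, minus strand: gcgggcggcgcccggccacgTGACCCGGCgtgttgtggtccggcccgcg
Sirt3, chr7:140882478-140882526, minus strand: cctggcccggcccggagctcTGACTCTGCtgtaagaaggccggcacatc
Kdm4a, chr4:118179994-118180021, minus strand: gtgaggctgcGCAGAGTCAgactttaaa
In Hdac11 the letters occurred at 176 and 109 bases before the start, and in Sirt1 and Sirt3 at 111 and 197 bases before it. In Kdm4a they were on the opposite strand and after the start. A match is a description of these letters and not a bound site.

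The libraries held 6534684 to 8405857 counts on the listed genes. Nfe2l2, the gene of Nrf2, had a Log2FC of 3.36 (mNrf2-TG over NTG), and its count includes reads from the transgene. Defining cardiomyocyte genes were abundant in every library, with summed normalized counts of 843600 to 897100 (NTG) and 734100 to 762800 (mNrf2-TG libraries), and 4 of 12 fell (Tnni3, Myl2, Myl3 and Pln). Of 11 macrophage markers, 7 rose, with a summed level of 2238 to 2922 in NTG against 3603 to 4943 in mNrf2-TG. Of 10 fibroblast markers, 6 rose, with a summed level of 9757 to 12690 against 13930 to 14750. Of 10 endothelial markers, 4 fell and 1 rose, with sums of 10630 to 11180 against 9012 to 9815. The 4 atrial markers summed to 690.3 to 1450 in NTG against 2026 to 3892 in mNrf2-TG, mostly from Nppa (Log2FC 1.47, adjusted p = 0.00727). Markers of lymphocytes summed to at most 29.1 in any library. NTG 3 stood apart in the summed skeletal muscle markers, at 26900 against 14980 to 15970 in the other NTG libraries, and in the smooth muscle markers, at 27340 against 17520 to 19510. In NTG 3 Acta1 had 8893 counts against 1564 to 2117 in the other NTG libraries, and Acta2 7707 against 893 to 1894. In mNrf2-TG the smooth muscle markers summed to 20230 to 25510, below NTG 3 and above the other NTG libraries, and Acta2 had 6026 to 8693 counts, a range that holds NTG 3 and lies above the other NTG libraries. Yet 0 of the 8 smooth muscle markers were called, and 6 had a negative Log2FC, such as Myh11 (-0.10) and Tagln (-0.10). Positive values were seen for Acta2 (1.37, adjusted p = 0.163) and Smtn (0.14). Of the 8 skeletal muscle markers 3 fell in mNrf2-TG (Myh1, Myh4 and Ckm). The part of these differences in the results below was not tested, and in whole hearts fewer cells of a type and less RNA per cell cannot be told apart.

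Of the 81 members, 16 passed an adjusted p under 0.05 (edgeR quasi-likelihood test over all genes), and 12 of these fell while 4 rose in mNrf2-TG. The share was 19.8% of members, beside 17.2% of all 14637 genes tested. By direction, 14.8% of members fell and 4.94% rose, beside 8.73% and 8.48% of all genes. The median Log2FC was -0.08 over the members and 0.00 over all genes, and 51 members had a negative value. Most members are well expressed, and 80 had at least 10 counts in every library. Among all genes with a mean of at least 100 counts, 24% were called (13.7% lower and 10.3% higher) and the median Log2FC was -0.04, so the share of members that fell was near that of genes of this level. The called changes were small, with a Log2FC of 0.25 to 0.59 in size for every called gene but Hdac4, the only called member that changed more than 2-fold. The groups did not overlap in 34 members (42%), beside 29.7% of all genes and 37.8% of those with a mean of at least 100 counts, and these included all 16 called. Of the 16, 6 were called in every one of the 14 other fits, among them Hdac4, Ncor1, Ep300, Kat6a and Prmt2. The number of members called depended on single libraries, and was 8 without NTG 1, 8 without NTG 2, 7 without mNrf2-TG 17, 9 without mNrf2-TG 18 and 10 without mNrf2-TG 19. It was 20 without NTG 3, and 15 of these were among the 16.

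**Figure D1:**
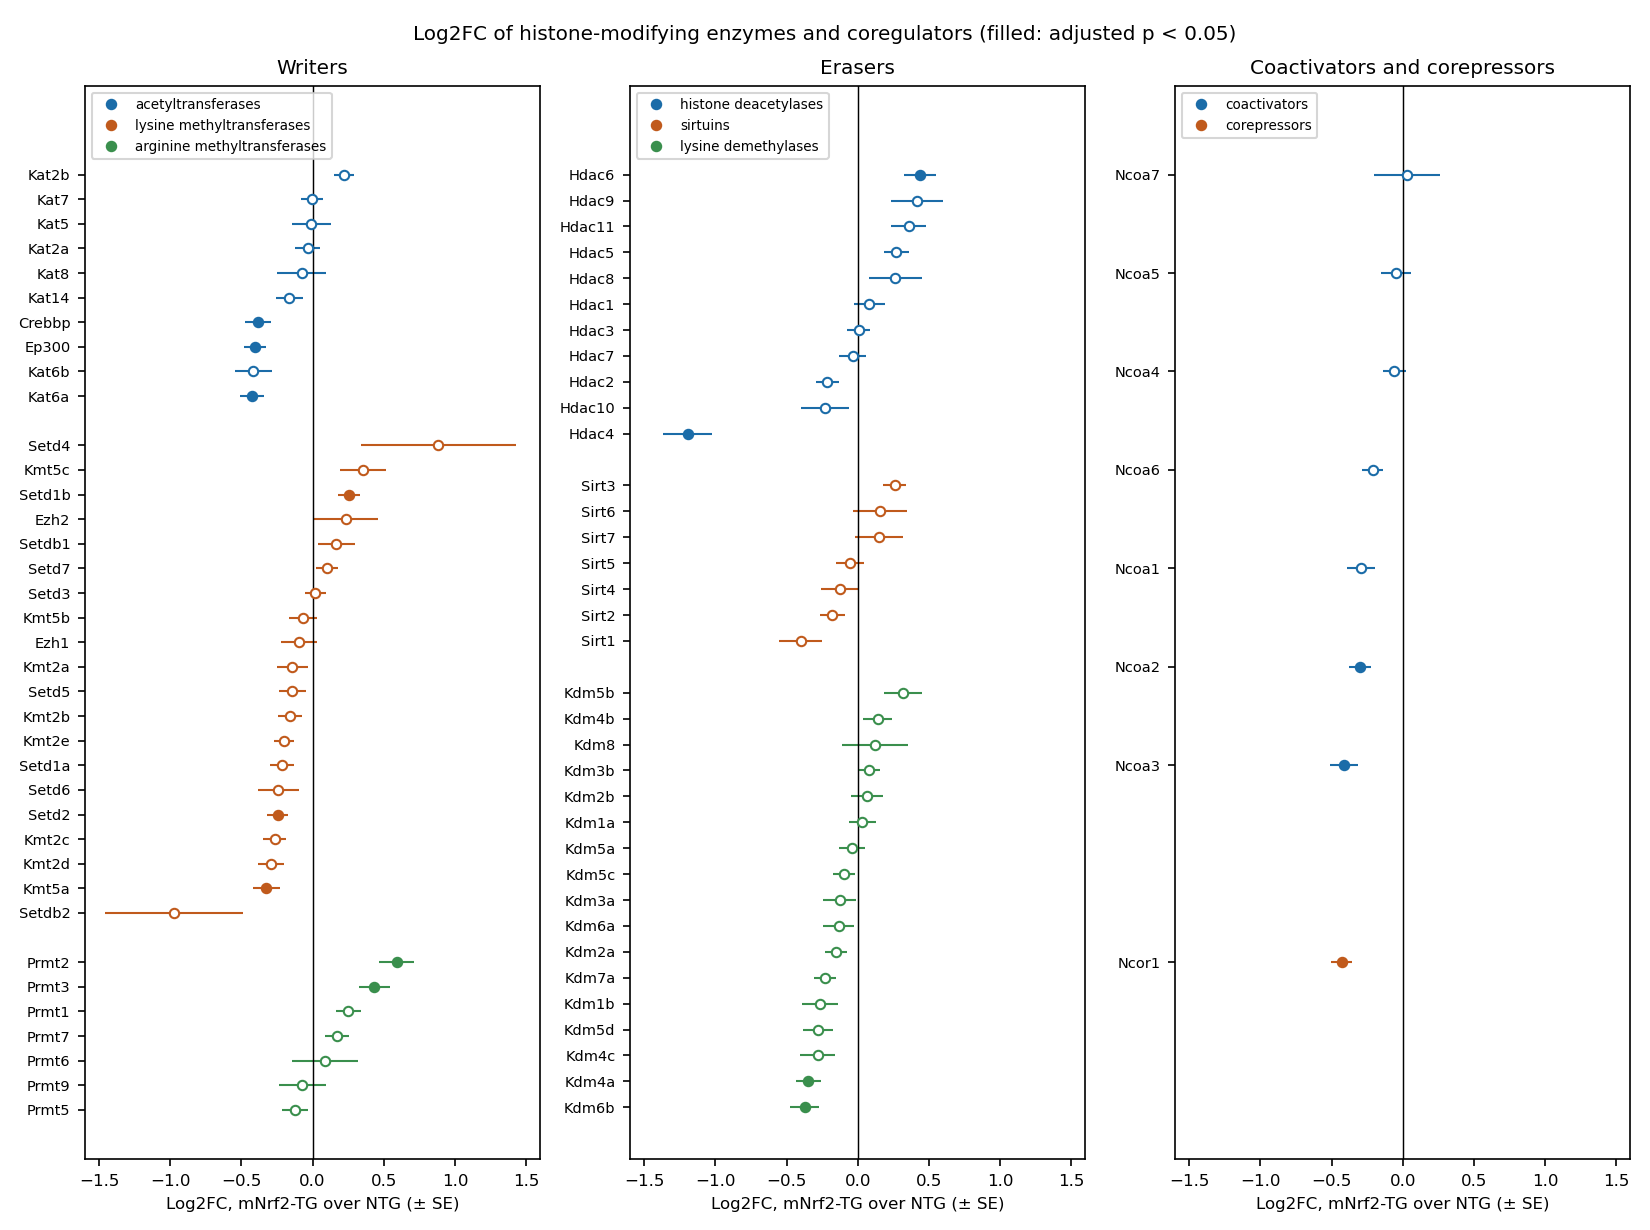
Log2FC of mNrf2-TG over NTG (x axis, log2 scale, bars ± SE) for 80 of the 81 members (y axis), with writers, erasers and coregulators in separate panels and filled points for an adjusted p under 0.05. Filled coregulators all lie to the left of 0, while filled points lie on both sides of 0 among writers (5 left, 3 right) and erasers (3 left, 1 right).

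Writers and erasers were compared first by their counts of called genes. Of the 37 writers 8 were called (21.6%), with 5 lower and 3 higher, and of the 35 erasers 4 were called (11.4%), with 3 lower and 1 higher, beside 17.2% of all genes and 24% of those with a mean of at least 100 counts. The median Log2FC was -0.08 for writers and -0.04 for erasers. This order turned without mNrf2-TG 19 (-0.02 for writers and -0.08 for erasers) and without NTG 2, where both were -0.03 (-0.0276 and -0.0287), and without mNrf2-TG 18 the median of the erasers was 0.01. When 1 library was left out, 3 (without NTG 2 or mNrf2-TG 17) to 9 (without NTG 4) writers were called. For erasers this was 1 (without NTG 1, mNrf2-TG 17 or mNrf2-TG 19) to 7 (without NTG 3). The balance of directions among erasers turned without NTG 3 (4 higher, 3 lower) and with the library total as the scale (4 higher, 2 lower). At an unadjusted p under 0.05 the shares were 40.5% and 40.0%, beside 32.2% of all genes and 41.2% of those with a mean of at least 100 counts. The summed normalized counts of the writers were 16440 to 17330 in NTG against 15200 to 16040 in mNrf2-TG, a mean difference of -7.91%. Those of the erasers were 9668 to 9900 in NTG against 9319 to 9531 in mNrf2-TG, a mean difference of -3.73%. Kmt5a, the most abundant writer, carried part of the difference of the writers. Without it the sums of the writers overlapped (13720 to 14600 against 13010 to 13870), with a mean difference of -5.51%, an alternative added after the data were seen. As given, neither sum overlapped between the groups, but with the library total as the only scale the sums of the erasers did (9460 to 9850 against 9328 to 9804). The ratio of the sums, which no scaling alters, was 1.73 ± 0.03 (SD, n = 4) in NTG and 1.66 ± 0.06 (SD, n = 3) in mNrf2-TG. Its ranges, 1.701 to 1.771 and 1.595 to 1.722, overlapped, and without Kmt5a they were 1.419 to 1.475 and 1.375 to 1.489 (a mean difference of -1.82% in place of -4.31%).

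Of the 3 classes, coregulators had the largest share of called genes (44.4%), and 4 of 9 fell while 0 rose, beside 8.73% lower over all genes and 13.7% lower over those with a mean of at least 100 counts. Their summed level was 5465 to 6099 normalized counts in NTG against 4404 to 4711 in mNrf2-TG, a mean difference of -20.6%. Between 2 and 5 coregulators were called in each of the other fits, with 0 higher in any. Coregulators also had the longest merged exons at the median, 9744 bases, beside 6125 for writers and 5823 for erasers. At least 6000 bases were found in 8 of the 9, and the part of length was not tested. Ncor1, a corepressor of nuclear receptors (Entrez gene 20185, GRCm38 chromosome 11, 62316426 to 62458541) had 1945, 1812, 1649 and 1773 normalized counts in NTG 1 to 4 and 1261, 1337 and 1397 in mNrf2-TG 17 to 19. Its Log2FC was -0.43 (SE 0.08, adjusted p = 0.00555). The highest mNrf2-TG library lay below the lowest NTG library, and the call held in all 14 other fits (adjusted p up to 0.0294). Hdac3, the deacetylase that Ncor1 recruits and activates, had 467 ± 32.8 (SD, n = 4) in NTG and 469 ± 18.3 (SD, n = 3) in mNrf2-TG. The ratio of Ncor1 to Hdac3 counts was 3.35 to 4.22 in NTG against 2.63 to 2.98 in mNrf2-TG. Exons of Ncor1 share 82 bases with Pigl on the opposite strand, and whether counting used the strand is not given in the sources used here.

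Among the p160 coactivators, which carry nuclear receptors to acetyltransferases, Ncoa3 and Ncoa2 fell. Ncoa3 (Entrez gene 17979, chromosome 2, 165992636 to 166073242) had 541, 537, 505 and 519 normalized counts in NTG and 334, 424 and 426 in mNrf2-TG. Its Log2FC was -0.41 (SE 0.10, adjusted p = 0.0167), and the call was lost without NTG 1 (adjusted p = 0.0506). Exons of Ncoa3 share 154 bases with Sulf2 on the opposite strand. Ncoa2 (Entrez gene 17978, chromosome 1, 13139105 to 13374083) had 838, 825, 745 and 815 in NTG and 609, 670 and 682 in mNrf2-TG. The groups did not overlap for either gene. The Log2FC of Ncoa2 was -0.30 (SE 0.08, adjusted p = 0.0226), a call lost without NTG 1, NTG 2, mNrf2-TG 17 or mNrf2-TG 18 (adjusted p up to 0.0915). Ncoa1, the third p160 gene, had a Log2FC of -0.29 (SE 0.10, adjusted p = 0.0642) with no overlap, and passed the test without NTG 3 (adjusted p = 0.025). Together the 3 genes summed to 1770 ± 95.5 (SD, n = 4) in NTG and 1410 ± 105 (SD, n = 3) in mNrf2-TG. The other coactivators were not called, with Log2FC values of -0.21 (Ncoa6), -0.06 (Ncoa4, a ferritin receptor in autophagy), -0.05 (Ncoa5) and 0.03 (Ncoa7).

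Of the 10 acetyltransferases 3 fell (30%, beside 8.73% of all genes and 13.7% of those with a mean of at least 100 counts) and 0 rose, and 9 had a negative Log2FC (median -0.12). The paralogs Ep300 and Crebbp both fell. Ep300 (Entrez gene 328572, chromosome 15, 81585351 to 81652077) had 759.7, 729.9, 663 and 670.1 normalized counts in NTG and 526, 527 and 546 in mNrf2-TG. Its Log2FC was -0.40 (SE 0.08, adjusted p = 0.0068), and it was 24.5% lower by the fitted fold. Crebbp (Entrez gene 12914, chromosome 16, 4081328 to 4213997) had 344, 358, 304 and 319 in NTG and 234, 258 and 269.6 in mNrf2-TG. All 3 mNrf2-TG libraries were below all NTG libraries for both genes. The Log2FC of Crebbp was -0.38 (SE 0.09, adjusted p = 0.0191), a call lost without NTG 1, NTG 2, mNrf2-TG 17 or mNrf2-TG 18 (adjusted p up to 0.0783). Per kilobase of exon, Ep300 was about double Crebbp, at 49.4 ± 3.28 against 24.5 ± 1.79 normalized counts per kb (SD, n = 4 NTG).

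Kat6a, the MOZ acetyltransferase (Entrez gene 244349, chromosome 8, 22859535 to 22943259), had 787, 836, 796 and 716 normalized counts in NTG and 536, 632 and 580 in mNrf2-TG. Its Log2FC was -0.43 (SE 0.08, adjusted p = 0.0083). Its paralog Kat6b had 232, 318, 307 and 233 in NTG and 200.1, 209.9 and 203 in mNrf2-TG. The groups did not overlap for either paralog, but Kat6b was not called (Log2FC -0.42, SE 0.13, adjusted p = 0.0527). It passed in DESeq2, with a minimum of 10 counts throughout one group, and without NTG 1 or NTG 4 (adjusted p down to 0.0347). Kat2b, known as PCAF, had the highest Log2FC of the class, 0.22 (SE 0.07, adjusted p = 0.0526), with 1128 to 1226 in NTG against 1298 to 1441 in mNrf2-TG. It passed the test in DESeq2, limma-voom, with the library total as the scale and under both stricter filters on low counts, and in 0 of the 7 fits without 1 library. The MYST enzymes Kat5, Kat7 and Kat8, and Kat2a and Kat14, had Log2FC values between -0.16 and -0.01, each with overlapping groups. Exons of Kat14 share 693 bases with Pet117 on the same strand, and those of Kat5 share 426 with Rnaseh2c on the opposite strand.

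Of the 20 lysine methyltransferases 2 fell (10%, near the 8.73% of all genes) and 1 rose (5%), with a median Log2FC of -0.14. Kmt5a, which places the first methyl group on lysine 20 of histone H4 (Entrez gene 67956, chromosome 5, 124439930 to 124462308), had 2555, 2579, 3226 and 2725 normalized counts in NTG and 2372, 2168 and 2099 in mNrf2-TG. Its Log2FC was -0.32 (SE 0.09, adjusted p = 0.0394). Setd2, the enzyme that completes trimethylation of lysine 36 of histone H3 (Entrez gene 235626, chromosome 9, 110532597 to 110618633), had 686, 695, 646 and 623 in NTG and 558, 583 and 535 in mNrf2-TG. Neither gene overlapped between the groups. The Log2FC of Setd2 was -0.25 (SE 0.07, adjusted p = 0.0441). Both calls depended on single libraries. Kmt5a lost its call in 6 of the 7 fits without 1 library, all but that without NTG 3 (adjusted p up to 0.127), and Setd2 in 5, all but those without NTG 3 or NTG 4 (adjusted p up to 0.148). With the library total as the scale Setd2 also missed the threshold.

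Setd1b, a methyltransferase of lysine 4 of histone H3 (Entrez gene 208043, chromosome 5, 123142193 to 123168629), had 235, 254, 244 and 247 normalized counts in NTG and 279, 297 and 301 in mNrf2-TG. Its Log2FC was 0.25 (SE 0.08, adjusted p = 0.0491), the closest to the threshold among the called members. The call was lost in DESeq2 and in all 7 fits that left out 1 library (adjusted p up to 0.134). Its paralog Setd1a had a Log2FC of -0.22 (adjusted p = 0.107), but 3523 of its 6795 exon bases overlap Gm49388 on the same strand, so its count is uncertain. The 5 Kmt2 genes, of which Kmt2a to Kmt2d act on the same lysine and Kmt2e is not known as an active methyltransferase, all had negative values, from -0.29 (Kmt2d) and -0.27 (Kmt2c) to -0.20 (Kmt2e), -0.16 (Kmt2b) and -0.14 (Kmt2a). In edgeR 0 of the 5 were called, beside 17.2% of all genes and 24% of those with a mean of at least 100 counts. DESeq2 called 2 and limma-voom 0. An unadjusted p under 0.05 was seen in 3 of the 5, beside 32.2% of all genes and 41.2% of those with that mean. The summed level of the 5 Kmt2 genes was 3380 ± 243 (SD, n = 4) in NTG and 2910 ± 167 (SD, n = 3) in mNrf2-TG. Exons of Kmt2e share 972 bases with Srpk2 on the opposite strand. Of the Polycomb enzymes, Ezh1 had a Log2FC of -0.09 and Ezh2 of 0.23, both with overlapping groups.

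The extremes of the class were uncertain values. Setdb2, a lysine 9 methyltransferase, had the lowest Log2FC, -0.98 (SE 0.49, adjusted p = 0.198), with 67.8, 88.2, 242 and 47.8 normalized counts in NTG and 52.7, 55.2 and 61.7 in mNrf2-TG. NTG 3 alone was high, and without it the Log2FC was -0.27 (adjusted p = 0.422). Setd4 had the highest Log2FC, 0.88 (SE 0.54, adjusted p = 0.294), and rested on 1 to 8 counts per library.

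The arginine methyltransferases were the class of writers with a positive median (0.17). Of 7 genes 2 rose (28.6%) and 0 fell. The share that rose was 8.48% over all genes and 10.3% over those with a mean of at least 100 counts. Carm1, also called Prmt4, is outside the symbol families and fell (Log2FC -0.34, adjusted p = 0.0257). Prmt2 (Entrez gene 15468, chromosome 10, 76207222 to 76237865) had 110.3, 118, 96.9 and 128 normalized counts in NTG and 186, 156 and 172 in mNrf2-TG. Its Log2FC was 0.59 (SE 0.12, adjusted p = 0.00996), the largest increase among called members. Prmt3, whose known substrate is a ribosomal protein (Entrez gene 71974, chromosome 7, 49778346 to 49858265), had 153, 143, 128 and 138 in NTG and 213, 175 and 182 in mNrf2-TG. Every mNrf2-TG library exceeded every NTG library for both. The Log2FC of Prmt3 was 0.43 (SE 0.11, adjusted p = 0.0226), and the call was lost without NTG 2 or mNrf2-TG 17 (adjusted p up to 0.0919). Prmt1, which makes most asymmetric dimethylarginine, had a Log2FC of 0.25 (SE 0.09, adjusted p = 0.0814), and passed without NTG 4 (adjusted p = 0.0427). Prmt5, the main symmetric enzyme, had the lowest value of the class, -0.13 (SE 0.09, adjusted p = 0.384). The summed level of the class was 1330 to 1425 in NTG against 1549 to 1581 in mNrf2-TG (12.5% higher in the mean). With Carm1 added, after the data were seen, the sums overlapped (1762 to 1877 against 1857 to 1931, 4.71% higher in the mean). By contrast, the sum of the lysine methyltransferases was 10670 to 11680 against 9700 to 10310. Without Kmt5a the sums of the lysine methyltransferases overlapped (8118 to 8700 against 7578 to 8144), an alternative also added after the data were seen.

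**Figure D2:**
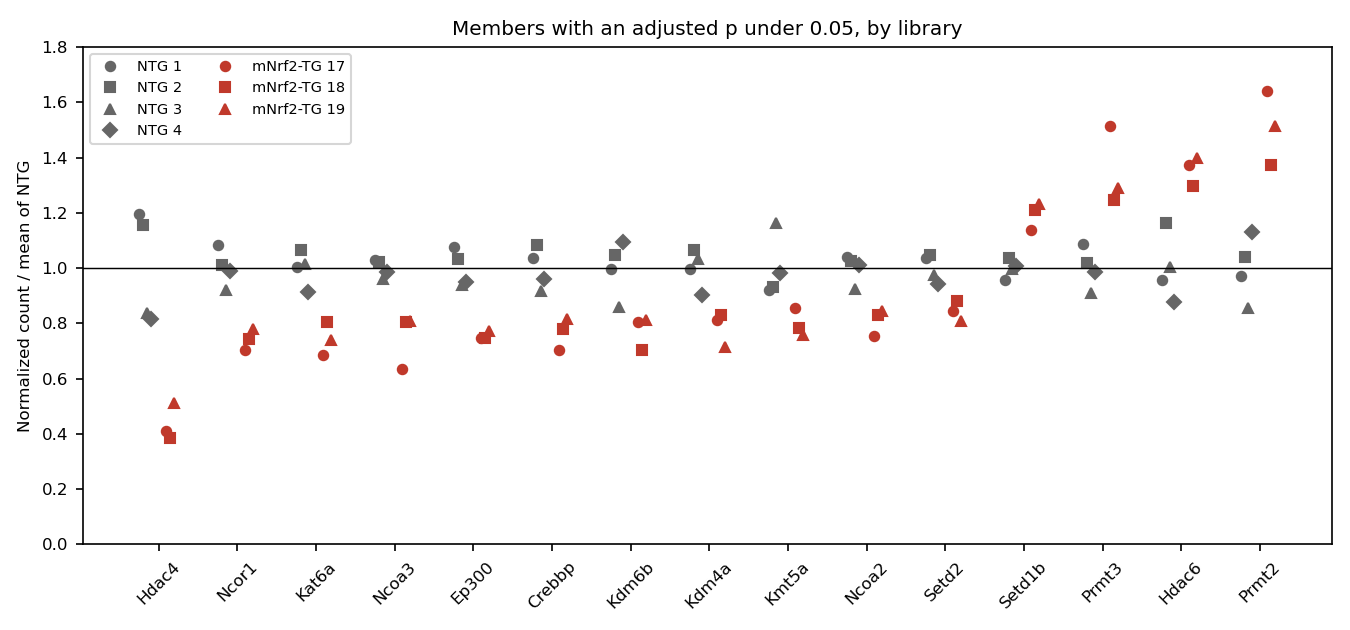
Normalized count of each library divided by the NTG mean of the gene (y axis, linear from 0) for 15 of the 16 called members (x axis, ordered by Log2FC), with a marker for each library and 1 marking the NTG mean. The groups do not overlap for any gene drawn, and Hdac4 lies lowest, while Setd1b, Prmt3, Hdac6 and Prmt2 lie above 1 in all mNrf2-TG libraries.

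Of the 11 classical deacetylases 1 fell and 1 rose (9.09% each, near the 8.73% and 8.48% of all genes), and the median Log2FC was 0.08. Hdac4, a class IIa enzyme that shuttles out of the nucleus when phosphorylated (Entrez gene 208727, chromosome 1, 91928779 to 92195699), had 303, 293, 212 and 207 normalized counts in NTG and 104, 97.5 and 129.8 in mNrf2-TG. All mNrf2-TG libraries were below all NTG libraries, among which NTG 1 and NTG 2 were the high ones. Its Log2FC of -1.20 (SE 0.17, adjusted p = 0.00206) was the lowest of the 81 members, and stayed between -1.33 and -1.10 in the other fits. Hdac6, the cytoplasmic deacetylase of tubulin (Entrez gene 15185, chromosome X, 7930120 to 7947889), had 123, 149, 129 and 112.5 in NTG and 176, 166 and 179.7 in mNrf2-TG. Its Log2FC was 0.44 (SE 0.11, adjusted p = 0.027). The call was lost in 5 of the 7 fits without 1 library, those without NTG 1, NTG 4 and each mNrf2-TG library (adjusted p up to 0.0826).

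The class IIa deacetylases, Hdac4, Hdac5, Hdac7 and Hdac9, had Log2FC values of both signs. Hdac5 had 649, 578, 734 and 619 normalized counts in NTG and 739, 772 and 824 in mNrf2-TG, with a Log2FC of 0.27 (SE 0.09, adjusted p = 0.0647). Hdac7 had 264 to 319 in NTG against 259 to 299 in mNrf2-TG, with a Log2FC of -0.03 (SE 0.09). Hdac9 had 198, 182, 201 and 328 in NTG and 314, 306 and 290.5 in mNrf2-TG. NTG 4 alone reached the mNrf2-TG level of Hdac9 and lay above it. The Log2FC of Hdac9 was 0.42 (SE 0.18, adjusted p = 0.143) with all libraries and 0.65 (adjusted p = 0.00312) without NTG 4. Per kilobase of exon, Hdac4 made up 13.2%, 13.3%, 8.5% and 8.77% of the class IIa level in NTG 1 to 4 and 4.22%, 4.02% and 4.95% in mNrf2-TG 17 to 19. Hdac5 made up 47.0% to 52.9% and 53.8% to 57.4%. The whole class made up 26.3% ± 0.63 (SD, n = 4) of the classical deacetylases in NTG and 27.1% ± 0.24 (SD, n = 3) in mNrf2-TG, and both groups included a library at 26.8%.

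The class I enzymes, of which Hdac1, Hdac2 and Hdac3 are the catalytic parts of nuclear repressor complexes, were not called. Hdac1 had 106 to 112 normalized counts in NTG against 103 to 126 in mNrf2-TG (Log2FC 0.08, SE 0.11). Hdac2 had 595 to 707 and 512 to 582, without overlap (Log2FC -0.21, SE 0.08, adjusted p = 0.111). Hdac3 had a Log2FC of 0.01 (SE 0.08), and Hdac8, the least abundant, of 0.26 (SE 0.19, adjusted p = 0.365). Hdac11, the class IV enzyme, had 318, 303, 371 and 247 in NTG and 395, 399 and 397 in mNrf2-TG. The groups did not overlap for Hdac11, but its Log2FC of 0.36 (SE 0.12, adjusted p = 0.0675) passed only with the library total as the scale and without NTG 3 (adjusted p = 0.0106). The same 2 settings called Hdac5 (adjusted p = 0.0131 without NTG 3). Hdac10 had a Log2FC of -0.23 (SE 0.17, adjusted p = 0.389).

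Among the 7 sirtuins, deacylases that use NAD, 0 were called in edgeR, in DESeq2 or in limma-voom, beside 17.2% of all genes in edgeR. Of the 7, 2 had an unadjusted p under 0.05 (28.6%, beside 32.2% of all genes). Sirt3, the main deacetylase of mitochondria, had 337, 317, 351 and 354 normalized counts in NTG and 440.1, 381 and 399 in mNrf2-TG. It was the only sirtuin without overlap. Its Log2FC was 0.26 (SE 0.08, adjusted p = 0.0549), and it passed the test under 2 stricter filters on low counts (adjusted p = 0.0439 and 0.044), with the library total as the scale (0.0402) and without NTG 3 (0.0495). Exons of Sirt3 share 418 bases with Ric8a and 342 with Psmd13 on the opposite strand. Sirt1, the nuclear enzyme, had 179, 237, 214 and 157 in NTG and 158, 162 and 129.8 in mNrf2-TG. Its groups overlapped, since NTG 4 was as low as mNrf2-TG 17 and 18. The Log2FC of Sirt1 was -0.40 (SE 0.15, adjusted p = 0.0993), and it passed without NTG 4 (adjusted p = 0.0437). Sirt2, the most abundant sirtuin per kilobase, had a Log2FC of -0.18 (SE 0.09, adjusted p = 0.186). The mitochondrial Sirt4 and Sirt5 had values of -0.12 (SE 0.13) and -0.06 (SE 0.10), and the nuclear Sirt6 and Sirt7 of 0.16 (SE 0.19) and 0.15 (SE 0.17), each with overlapping groups.

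**Figure D3:**
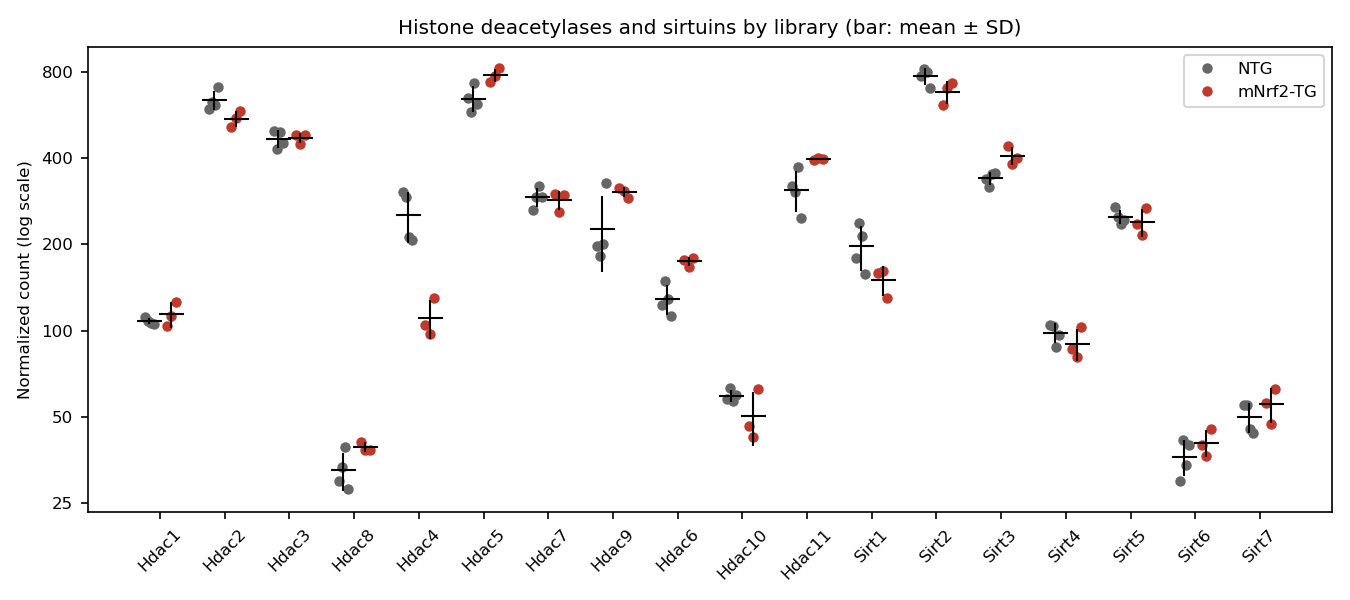
Normalized counts per library (y axis, log scale) of the 11 histone deacetylases and 7 sirtuins (x axis), with NTG in grey, mNrf2-TG in red, and crosses at the mean ± SD. Hdac4 lies lower and Hdac6 higher in all mNrf2-TG libraries, the groups of Hdac3 overlap, and 1 NTG library of Hdac9 lies above all mNrf2-TG libraries.

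Of the 17 lysine demethylases 2 fell (11.8%) and 0 rose, with a median Log2FC of -0.13. The share that fell was 8.73% over all genes and 13.7% over those with a mean of at least 100 counts. The summed level of the lysine demethylases was 4748 to 5020 normalized counts in NTG against 4382 to 4500 in mNrf2-TG (a mean difference of -8.17%). Kdm4a, a demethylase of lysines 9 and 36 of histone H3 (Entrez gene 230674, chromosome 4, 118136957 to 118180043), had 461, 492, 476 and 417 in NTG and 376, 383 and 330.4 in mNrf2-TG. Its Log2FC was -0.35 (SE 0.09, adjusted p = 0.0246), a call lost without NTG 1, NTG 2, mNrf2-TG 17 or mNrf2-TG 19 (adjusted p up to 0.0955). Kdm6b, also known as JMJD3, which removes the Polycomb mark on lysine 27 (Entrez gene 216850, chromosome 11, 69398508 to 69413675), had 379, 399, 327 and 416 in NTG and 307, 267 and 309 in mNrf2-TG. The groups did not overlap for either gene. The Log2FC of Kdm6b was -0.37 (SE 0.10, adjusted p = 0.0332), a call that held in 1 of the 7 fits without 1 library, that without NTG 3, and was lost with the library total as the scale (adjusted p up to 0.117 over all fits). Its X-linked relative Kdm6a had a Log2FC of -0.13 with overlapping groups. Kdm5b had the highest value of the class, 0.32 (SE 0.13, adjusted p = 0.132), and its relatives Kdm5a, Kdm5c and Kdm5d had values of -0.04, -0.09 and -0.28. Kdm1a, the LSD1 demethylase of the CoREST complex, had a Log2FC of 0.03 (SE 0.09).

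Levels of different genes were compared per kilobase of merged exon in NTG. Kmt5a was highest at 522 ± 58.9 normalized counts per kb (SD, n = 4), above Kat2b at 239.7 ± 9.5. Then Sirt2 (153 ± 10), Setd3 (149.8 ± 6.93), Hdac2 (142 ± 11) and Ncor1 (140.1 ± 9.51), followed, and each differed from the next in this list by less than the larger of their SDs. In mNrf2-TG, Ncor1 had 103.9 and Kmt5a 417, still the highest. Ranked lowest in NTG were Setd4 (0.51), Ncoa7 (3.82), Ezh2 (5.28), Hdac8 (6.73) and Kdm5b (6.85). The median was 38.2 for writers, 36.9 for erasers and 51.5 for coregulators.

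The members called lower had long merged exons at the median. Their median merged exon length was 10622 bases (12 genes), beside 5906 for the 4 called higher, 6678 for all members and 4383 for all genes with a length. Of the 12, Kmt5a (5307 bases) and Kdm4a (5782) lay below the median of all members. Among the 44 members with at least 6000 bases of exon, 10 fell and 1 rose, and among the 37 shorter ones 2 fell and 3 rose. Over all genes 10.9% of the long fell and 7.64% rose, and 7.76% of the short fell and 8.84% rose. Among long genes with a mean of at least 100 counts, 14.6% fell and 8.3% rose, and among short genes of that level 13.1% fell and 11.7% rose. Across the 81 members the rank correlation of Log2FC with exon length was -0.31, and across all 14623 genes with a length it was -0.08. These points are genes of the same 7 libraries and share their depth and RNA quality. The comparison by length was chosen after the values were seen, and the part of length in the results was not tested.

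**Figure D4:**
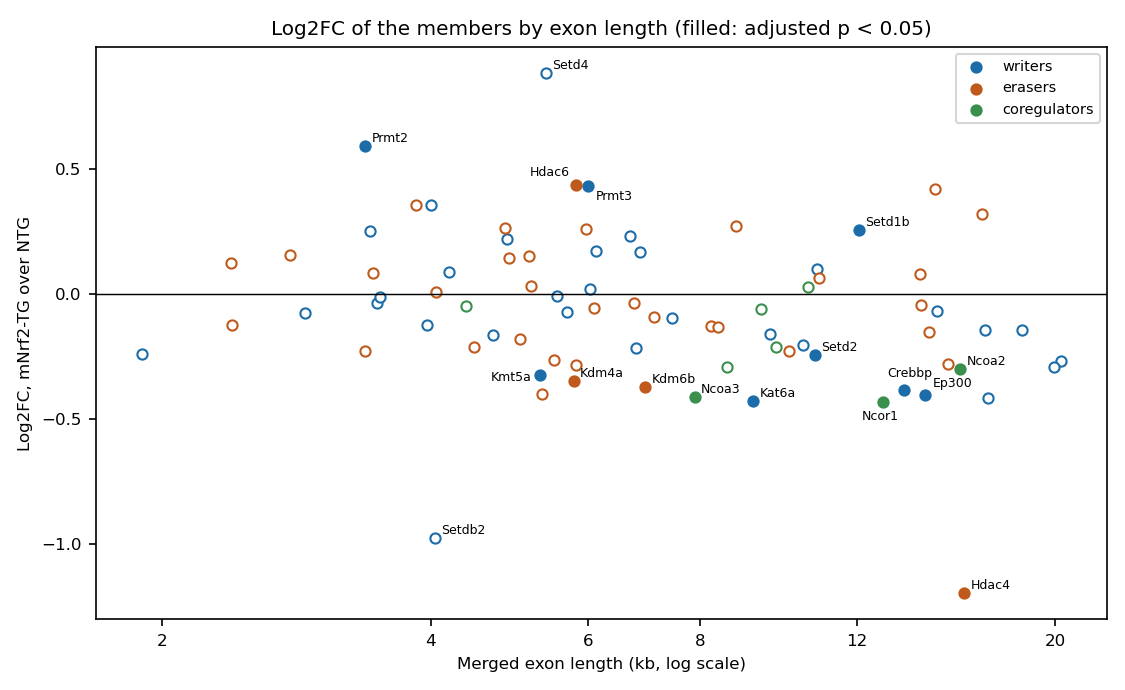
Log2FC of mNrf2-TG over NTG (y axis) against merged exon length in kb (x axis, log scale) for 80 of the 81 members, with colour for the class and filled points for an adjusted p under 0.05. Most of the filled points below 0 lie at or above 6 kb, among them Ncor1, Ep300, Crebbp and Hdac4, and 2 (Kdm4a and Kmt5a) lie below 6 kb.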

How the data were processed

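Members and gene lists were chosen with earlier results of these data known. The authors aligned 50-base single reads from stranded poly(A) libraries with Novoalign 2.08.01 (the submitters' notes name mm10) and deposited a table of read counts per gene without normalization. The counting program and any use of the strand are not given in the sources used here. The deposited rlog values and the authors' comparison (log2 fold changes and p-values) were not used. The table has 14665 entries, and 24 repeats of an Entrez gene were removed. Genes with a summed count above 1 (14637) were compared without covariates in edgeR 4.0.16 (R 4.3.3) with TMM scaling and the quasi-likelihood test, with Benjamini-Hochberg adjustment over all tested genes. The SE was taken as the size of the Log2FC over the root of the F statistic. Normalized counts are TMM-scaled counts at the mean library size. With 6534684 to 8405857 counts per library, genes with a few counts carry little information. Each library is taken as 1 mouse. The p-values set the difference between the groups against the spread between these libraries, which is estimated with information shared across genes.

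Lengths and positions are from GENCODE M21 (GRCm38), promoters from RefSeq. Values per library were given for called members. All Hdac and Sirt genes, Ep300 and Crebbp were named whatever their test, and other members as the extremes of a class or where a small count singled them out. Kat6b, Ncoa1, Prmt1, Setd1a and the uncalled Kat, Ezh, Kmt2 and Kdm genes were named after their values were seen. Writers, erasers and coregulators were described by counts and medians, with no test between classes. Alternatives were DESeq2 1.42.0, limma-voom (limma 3.58.1), DESeq2 size factors, the library total as the scale, filterByExpr, no filter, a minimum of 10 counts throughout one group, an unadjusted p, and leaving out each library. The statistics were tested on simulated data first. Python 3.11.15 with pandas 2.3.3 and matplotlib 3.10.9 made the tables and plots. Some genes, included in the counts and sums, are not reported here by name or drawn.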

Additional observations from a re-analysis of the deposited data

Results flagged for a closer look

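In NTG, Hdac9 had 328 normalized counts in NTG 4 and 182 to 201 in the other 3 NTG libraries, so that NTG 4 lay far from the rest of its group. Setd6, a lysine methyltransferase, had 72.4 in NTG 1 and 93.8 to 97.2 in the other NTG libraries. These are 2 of 48 members examined in the NTG group, a set that differs in part from the members named in this report. A group of 4 is marked in this way by chance about 1 time in 20. None of the 11 summed levels of the classes was marked in the same way (0 of 11).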

How the results depend on the processing

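No called member changed direction in any fit (0 reversed), 6 of the 16 called members were called in all 14 alternatives and 10 were lost in at least 1. The number called ranged from 7 to 20 members when 1 library was left out, with 1 to 6 higher and 6 to 14 lower. For writers the ranges were 3 to 9 called, 1 to 3 higher and 2 to 6 lower, and for erasers 1 to 7 called, 0 to 4 higher and 1 to 3 lower. Over all genes they were 1373 to 2950. The median Log2FC ranged from -0.137 to -0.0244 for writers and from -0.0763 to 0.0141 for erasers, both with extremes without mNrf2-TG 18 or mNrf2-TG 19, and the order of the classes turned without mNrf2-TG 19 and, narrowly, without NTG 2 (-0.0276 for writers and -0.0287 for erasers). With DESeq2, 8 writers were lower. With the library total as the scale, 8 members were higher and 10 lower, among them 4 erasers higher and 2 lower. The calls over all genes were 1383 higher and 1034 lower with that scale. With filterByExpr 2 erasers were higher, and with a minimum of 10 counts throughout one group 8 writers were lower and 2 erasers higher. At an unadjusted p, 35 members passed (11 higher, 24 lower), 15 writers (5 higher, 10 lower), 14 erasers (6 higher, 8 lower) and 4708 genes. The cause of these shifts was not tested. No paired analysis was possible because the groups share no replicate numbers. Depth limits the members with few counts, above all Setd4.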

Other observations

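Genes of the same pathways outside the member families were counted in the same test. Of 104 other histone modifiers, complex subunits and bromodomain readers 16 fell and 6 rose (21.2% called, median Log2FC -0.08). The share called was 17.2% over all genes and 24% over those with a mean of at least 100 counts. Other erasers had 4 of 8 lower (50%) and 0 higher, beside 8.73% lower over all genes and 13.7% over those of that level. Hr, the hairless demethylase and corepressor, fell from 344 ± 37.4 normalized counts (SD, n = 4) to 134 ± 40.2 (SD, n = 3), with a Log2FC of -1.35 (SE 0.18, adjusted p = 0.00146). The other 3 were Jmjd6 (-0.53), Uty (-0.30), the Y-linked relative of Kdm6a, and Phf2 (-0.28). Of 18 other writers 2 fell (11.1%) and 1 rose (5.56%), beside 8.73% and 8.48% of all genes. Smyd1, a methyltransferase of heart and skeletal muscle, fell from 5701 ± 334 (SD, n = 4) to 4018 ± 325 (SD, n = 3), with a Log2FC of -0.50 (SE 0.08, adjusted p = 0.00299). Carm1 was the other that fell, and Smyd5 rose (0.40, adjusted p = 0.0499).

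Among 31 subunits of eraser complexes 3 fell (9.68%) and 2 rose (6.45%), near the 8.73% and 8.48% of all genes. Enrichment was not tested, and 3 of these 5 subunits belong to the complex of Ncor1 and Hdac3. Its subunits Gps2 and Tbl1xr1 fell, with Log2FC values of -0.52 (SE 0.11, adjusted p = 0.0116) and -0.36 (SE 0.10, adjusted p = 0.0327), while Tbl1x, the paralog of Tbl1xr1, rose by 0.54 (SE 0.10, adjusted p = 0.00715). Tbl1x had 226 to 312 counts in NTG against 386 to 449 in mNrf2-TG. Of the subunits of the NuRD complex, Chd3 fell (-0.60, adjusted p = 0.01), while Mbd3 rose (0.29, adjusted p = 0.0426), as did Rbbp4 (0.31, adjusted p = 0.0138), which is also part of writer complexes and was counted there. Its other subunits Chd4 (-0.19, adjusted p = 0.0732), Mta1, Mta2, Mta3, Mbd2, Gatad2a, Gatad2b and Rbbp7 were not called. Among 41 subunits of writer complexes 5 fell (12.2%) and 3 rose (7.32%), beside 8.73% and 8.48% of all genes. Among genes with a mean of at least 100 counts 13.7% fell and 10.3% rose. Of the 5 subunits that fell, Morf4l1 had the lowest adjusted p (Log2FC -0.44, SE 0.07, adjusted p = 0.00252). Of the 3 that rose, Supt3 of the SAGA complex had the highest value (0.62, SE 0.09, adjusted p = 0.00244). Among 6 bromodomain readers of acetylated histones 2 fell (33.3%, beside 8.73% of all genes), 0 rose and 4 were not called. Brd7 was among those that fell (Log2FC -0.37, SE 0.10, adjusted p = 0.0252).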
